A study of Rattus norvegicus with 30 samples.

Results

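The growth hormone and IGF axis was measured in rat liver through 7 genes of 14217 with a probe set of their own: the receptor gene Ghr, the transcription factor gene Stat5b, the feedback inhibitor genes Socs2 and Cish, and the genes of the secreted proteins Igf1, Igfals and Igfbp3. The members were all probe sets annotated to 1 of these symbols alone, which gave 12 of the 31042 probe sets tested: 2 for Ghr, 1 for Stat5b, 1 for Socs2, 2 for Cish, 3 for Igf1, 1 for Igfals and 2 for Igfbp3. No member probe set carried a further symbol, and no probe set was left out for low values.

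Growth hormone from the pituitary binds its receptor on hepatocytes, and the receptor-bound kinase Jak2 then activates Stat5b, which enters the nucleus and drives Igf1, Igfals, Socs2 and Cish. Liver is the main source of circulating IGF-1, which travels in blood bound to Igfbp3 and to the acid-labile subunit encoded by Igfals. In rats, the timing of growth hormone pulses differs between the sexes and sets sex-specific liver genes, and fasting is known to make the liver less sensitive to the hormone.

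The livers came from 30 female Sprague-Dawley rats aged 10 wk, with 10 rats in each of 3 groups and 1 array per rat. Rats with 4-day handling were weighed, placed in a Broome restrainer, gavaged with water each day and bled from the tail vein several times on the last day. Rats with 1-day handling underwent these steps once, and control rats were not handled. The left lobe was taken at 96 h in the 4-day group and at 24 h in the 1-day and control groups, so day and handling cannot be told apart in the comparison of 4-day handling with control. All rats were sham-dosed with water or left alone, no compound was given, and the groups hold different animals. Values are intensities scaled so that each array averaged 1, and levels of different probe sets are not set against each other, since probes differ in brightness.

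The labelled tissue matched its markers. The summed intensity of 6 hepatocyte markers was 329 to 379 after 4-day handling, 331 to 372 after 1-day handling and 327 to 369 in control rats. Control rats 1, 2 and 3 stood apart from the other 27 rats on the first principal component of all probe sets (52.3 to 84.3 against -25.2 to 1.76), with array weights of 0.394 to 0.640 against 0.814 to 1.40, so member values were also fitted without them. The log2 difference between the 3′ and 5′ Gapdh control probe sets, which grows as RNA degrades, was 0.70 to 0.96 after 4-day handling, 0.66 to 0.83 after 1-day handling and 0.55 to 0.70 in control rats. Its part in the member values was not tested beyond a fit that holds it as a covariate. Signed values in this text are handled minus control as the sample labels name the rats, and for genes that the study names as changed this sign runs opposite to the stated one. In the values used here, the sign was opposite for 25 of 25 measured genes after 4 days and for 25 of 25 after 1 day. Whether the labels or the stated direction is turned was not settled here. The study's methods also describe control samples with a differing profile, without naming them, and the labels place the arrays that stood apart here in the control group too. Of marker genes, 0 of 6 hepatocyte, 0 of 7 Kupffer cell, 0 of 7 endothelial, 0 of 8 stellate cell, 0 of 3 bile duct and 0 of 3 erythroid genes were called in either comparison with control, and 1 of 4 lymphocyte genes was, Nkg7, lower after 4-day handling (log2 fold change -0.42, limma adjusted p = 0.0902). At an unadjusted p under 0.05, 5 of 7 Kupffer cell genes were lower after 4-day handling (5.89% of all probe sets), with a list median of -0.29 and a smallest limma adjusted p of 0.112 (C1qc), and 0 of 7 were lower after 1-day handling, with a median of 0.02. After control rats 1, 2 and 3 were left out, the 4-day count was 6 of 7 and the median -0.33.

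No member gene passed the test in any comparison. The test was limma's moderated test on log2 intensity with Benjamini-Hochberg adjustment over all 31042 probe sets, with a call at an adjusted p under 0.1. In 4-day handling against control, 0 of 12 member probe sets were called, where 0.657% of all probe sets were. In 1-day handling against control 0 of 12 were called, against 0.0902% of all, and in 4-day against 1-day handling 0 of 12, against 0% of all. At an unadjusted p under 0.05, 3 of 12 members were lower after 4-day handling (5.89% of all probe sets were lower at that level) and 2 of 12 after 1-day handling (4.86% of all). These were both Cish probe sets and 1 of Igf1 after 4 days, and 1 of Cish and 1 of Ghr after 1 day. In 4-day against 1-day handling 0 of 12 had an unadjusted p under 0.05, against 5% of all probe sets. Without control rats 1, 2 and 3, 0 of 12 were called after 4-day handling (0.828% of all) and 0 of 12 after 1-day handling (0.329% of all).

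Cish, which encodes a cytokine-inducible SH2 protein that damps receptor signalling to Stat5, had the smallest adjusted p of the members. Its bases just upstream of the start site are shown because Stat5 binds the palindrome TTCNNNGAA and because Cish differed most. These are the 250 bases before the start of rat Cish (RefSeq, GRCr8, chr8:116850719-116850968, + strand), with matches in capitals:
Cish: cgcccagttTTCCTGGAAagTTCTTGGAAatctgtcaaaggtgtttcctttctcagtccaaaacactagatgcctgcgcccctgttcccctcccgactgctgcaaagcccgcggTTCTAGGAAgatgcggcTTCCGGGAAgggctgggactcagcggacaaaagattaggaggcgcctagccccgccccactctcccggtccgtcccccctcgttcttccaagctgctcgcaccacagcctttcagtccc
The window held 4 matches, TTCCTGGAA at -241, TTCTTGGAA at -230, TTCTAGGAA at -136 and TTCCGGGAA at -119, where positions count the first base from the start site. The pattern is its own reverse complement, so both strands were searched at once, and no match overlaps another. Of 33469 promoters searched over the same length, 2566 (7.67%) held at least 1 match and 2 (0.00598%) held 4 or more. The windows of Ghr, Stat5b, Igf1, Igfals and Igfbp3 held 0, and Socs2 was not searched here. A match describes letters only, and binding was not measured.

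The probe set Cish 1388233_at had a lowest, median and highest intensity of 0.0521, 0.109 and 0.236 after 4-day handling, 0.0794, 0.13 and 0.166 after 1-day handling, and 0.113, 0.193 and 0.389 in control rats. The groups overlapped: 9 of 10 rats with 4-day handling and 10 of 10 with 1-day handling lay below the control median, and 5 and 4 of these lay below every control rat. The log2 fold change of Cish 1388233_at was -0.84 after 4-day handling (standard error 0.24, 95% interval -1.33 to -0.36, limma adjusted p = 0.131) and -0.71 after 1-day handling (standard error 0.24, 95% interval -1.20 to -0.23, limma adjusted p = 0.317). Neither value passed. Without control rats 1, 2 and 3 limma gave -0.91 after 4-day handling (adjusted p = 0.137) and -0.78 after 1-day handling (adjusted p = 0.322). The limma adjusted p after 4 days ran from 0.0716 to 0.619 over 39 alternatives and was under 0.1 in 3 of them. These were 0.0946 with an offset of 0.05 before log2, 0.0716 without the dimmest 40% of probe sets and 0.0737 without 4-day rat 1. For Cish 1388233_at it was not under 0.1 with the Gapdh ratio as a covariate, a fit that called 5 of all probe sets in place of 204. This probe set was dim, with a median at percentile 47.0 of its own array after 4-day handling, 51.9 after 1-day handling and 59.3 in control rats, and the files hold no detection call.

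The other probe set, Cish 1378586_at, gave the same order of medians. Its lowest, median and highest intensity was 0.141, 0.353 and 0.556 after 4-day handling, 0.216, 0.421 and 0.568 after 1-day handling, and 0.273, 0.565 and 1.29 in control rats. All 10 rats with 4-day handling and 9 of 10 with 1-day handling lay below the control median, while only 2 and 1 lay below every control rat. The high control values were those of rat 10 (1.29) and rat 6 (0.997), and control rats 1, 2 and 3 had 0.545, 0.273 and 0.634. The log2 fold change was -0.69 after 4-day handling (standard error 0.27, limma adjusted p = 0.292) and -0.47 after 1-day handling (standard error 0.27, limma adjusted p = 0.606). Both Cish probe sets moved together from rat to rat, with a Pearson's r of 0.80 and a Spearman's rho of 0.80 over the 27 rats other than control 1 to 3 (permutation p = 3e-05 and 1e-05). Leaving out the 2 rats farthest from the median gave 0.73.

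**Figure D1:**
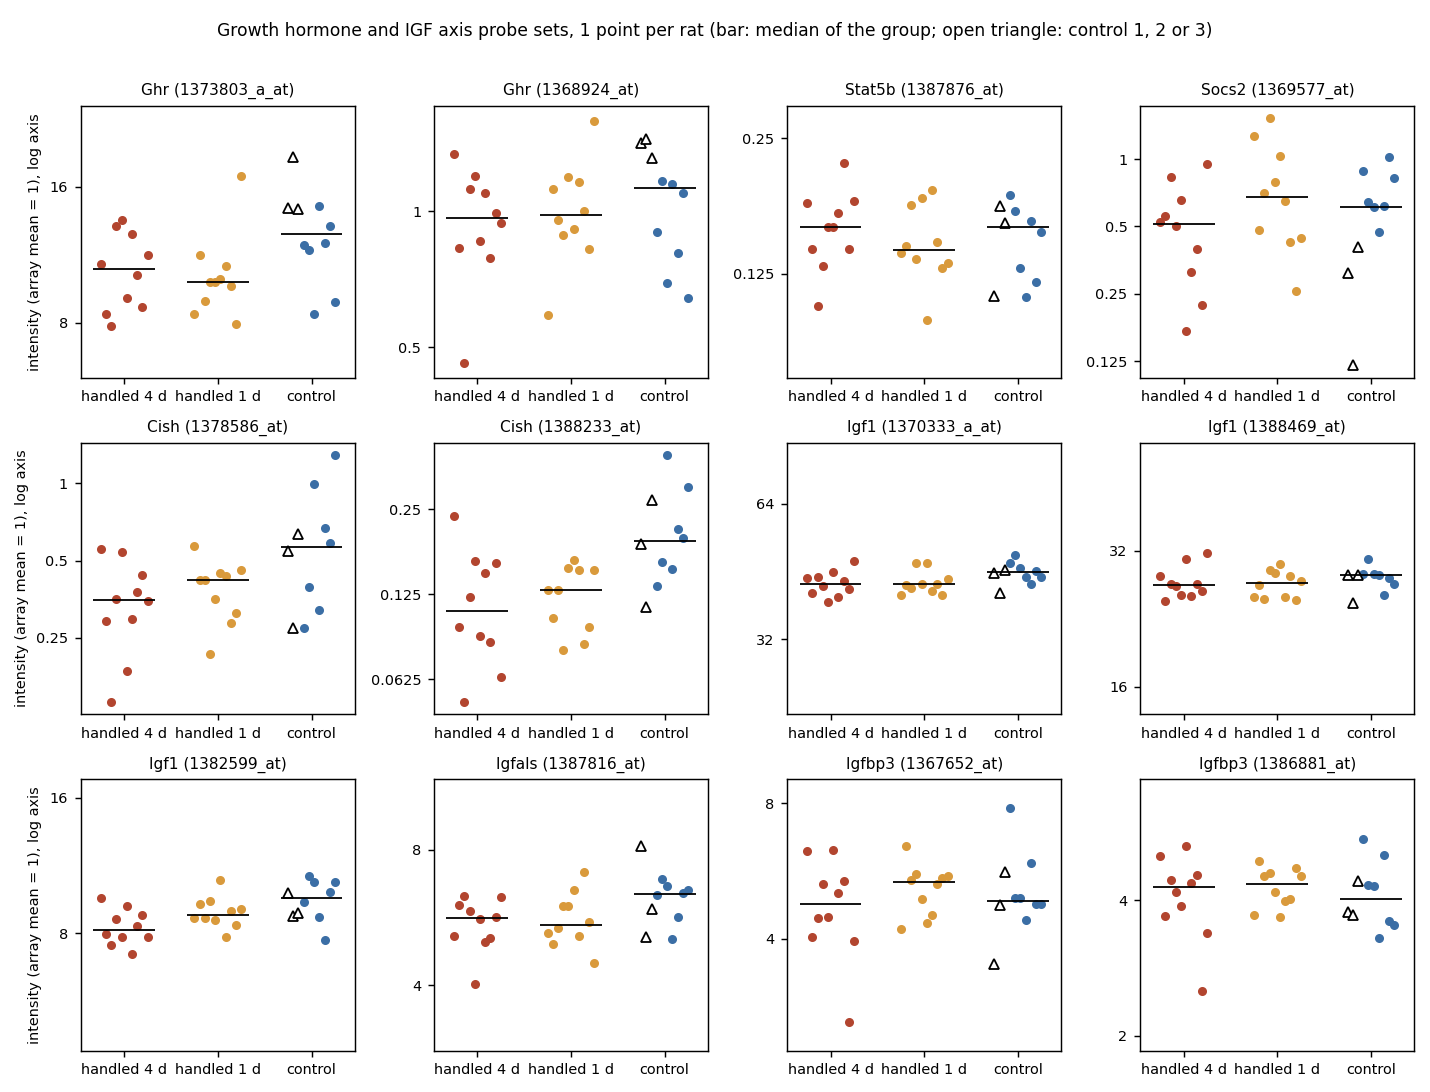
Intensity of each member probe set in every rat on a log axis (array mean = 1), by group, with a bar at the median of all 10 rats and control rats 1 to 3 as open triangles. The Cish panels show most handled rats below the control median with overlapping groups, and the Igf1 panels show the narrowest spread.

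Socs2, the other inhibitor and a known target of Stat5b, did not pass the test either. Its lowest, median and highest intensity was 0.17, 0.515 and 0.954 after 4-day handling, 0.258, 0.678 and 1.52 after 1-day handling, and 0.12, 0.612 and 1.02 in control rats. The groups overlapped almost fully, and 3 of 10 rats with 1-day handling lay above every control rat. The log2 fold change was -0.18 after 4-day handling (95% interval -0.91 to 0.55, limma adjusted p = 0.896) and 0.38 after 1-day handling (95% interval -0.36 to 1.11, limma adjusted p = 0.78). These values turned on control rats 1, 2 and 3, which had 0.309, 0.12 and 0.403, below all 7 other control rats (0.472 to 1.02). Without them the log2 fold change was -0.64 after 4-day handling (95% interval -1.33 to 0.06, limma adjusted p = 0.495) and -0.08 after 1-day handling, so the sign after 1 day turned. Between the handled groups it was -0.56 (95% interval -1.29 to 0.17, limma adjusted p = 0.995). Over 27 rats, Socs2 and Cish had an r of 0.07 (permutation p = 0.743).

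The receptor gene Ghr had lower medians after handling in both probe sets, and neither passed the test. Ghr 1373803_a_at had a lowest, median and highest intensity of 7.86, 10.5 and 13.5 after 4-day handling, 7.96, 9.85 and 16.9 after 1-day handling, and 8.36, 12.5 and 18.6 in control rats. The ranges overlapped, with 7 of 10 rats after 4 days and 9 of 10 after 1 day below the control median and 2 of 10 in each below every control rat. Its log2 fold change was -0.26 after 4-day handling (standard error 0.14, limma adjusted p = 0.473) and -0.30 after 1-day handling (standard error 0.14, limma adjusted p = 0.501). Control rats 1, 2 and 3 had 14.4, 18.6 and 14.3, among the highest values of the group. Without them the log2 fold change was -0.12 after 4-day handling (limma adjusted p = 0.802) and -0.16 after 1-day handling (limma adjusted p = 0.825).

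Ghr 1368924_at had a lowest, median and highest intensity of 0.461, 0.967 and 1.34 after 4-day handling, 0.589, 0.98 and 1.59 after 1-day handling, and 0.643, 1.13 and 1.45 in control rats. The medians lay close together and the ranges overlapped. Control rats 1, 2 and 3 had 1.42, 1.45 and 1.31, above all 7 other control rats (0.643 to 1.17). Handled minus control, this probe set had a log2 fold change of -0.14 after 4-day handling (limma adjusted p = 0.817) and -0.05 after 1-day handling (limma adjusted p = 0.956). Without those control rats it was 0.04 after 4-day handling and 0.14 after 1-day handling, so its sign rested on them. In handled and control rats alike the Ghr probe sets moved together, with an r of 0.79 and a rho of 0.78 over 27 rats (permutation p = 1e-05 for each, the smallest that these resamples can give) and an r of 0.74 without the 2 rats farthest from the median.

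Stat5b, the transcription factor that carries the signal to the nucleus, differed least from control after 1 day of all members. Stat5b 1387876_at had a lowest, median and highest intensity of 0.106, 0.159 and 0.22 after 4-day handling, 0.0987, 0.142 and 0.192 after 1-day handling, and 0.111, 0.159 and 0.187 in control rats. Its log2 fold change was 0.09 after 4-day handling (95% interval -0.17 to 0.35, limma adjusted p = 0.84) and -0.01 after 1-day handling (95% interval -0.27 to 0.25, limma adjusted p = 0.986). With all 30 arrays, Stat5b was the only member probe set with a positive value after 4 days. With the Gapdh ratio in the fit its log2 fold change was 0.29 after 4-day handling and 0.16 after 1-day handling.

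Igf1, the hormone that liver secretes in response to growth hormone, had the most even levels of the members. The standard deviation within groups over the 27 rats was 0.08, 0.10 and 0.13 on the log2 scale for its 3 probe sets, and only 2.42%, 4.7% and 10.8% of all probe sets had a smaller one. Igf1 1370333_a_at had a lowest, median and highest intensity of 38.7, 42.5 and 47.8 after 4-day handling, 40.1, 42.4 and 47.3 after 1-day handling, and 40.6, 45.2 and 49.3 in control rats. Its median lay at percentile 99.8 of the array in every group, near the top of the scale, and whether bright spots were saturated was not tested. Its log2 fold change was -0.08 after 4-day handling (95% interval -0.18 to 0.02, limma adjusted p = 0.579) and -0.07 after 1-day handling (95% interval -0.18 to 0.03, limma adjusted p = 0.69).

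The probe set Igf1 1382599_at showed a small and more regular shift. It had a lowest, median and highest intensity of 7.22, 8.14 and 9.57 after 4-day handling, 7.87, 8.81 and 10.5 after 1-day handling, and 7.74, 9.61 and 10.7 in control rats. All 10 rats with 4-day handling and 9 of 10 with 1-day handling were below the control median, but only 2 and 0 were below every control rat. The log2 fold change was -0.19 after 4-day handling (standard error 0.07, 95% interval -0.32 to -0.05, limma adjusted p = 0.237) and -0.08 after 1-day handling (limma adjusted p = 0.737). For Igf1 1388469_at the medians were 26.9 after 4-day handling, 27.2 after 1-day handling and 28.3 in control rats, and the log2 fold change was -0.02 after 4-day and -0.04 after 1-day handling (limma adjusted p = 0.913 and 0.879). The 3 probe sets of Igf1 thus differed in size of shift, and they correlated at r = 0.90, 0.57 and 0.56 in pairs over 27 rats (permutation p = 1e-05, 0.00221 and 0.00245).

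Igfals encodes the acid-labile subunit, which hepatocytes secrete and which keeps the IGF complex in blood. Igfals 1387816_at had a lowest, median and highest intensity of 4.03, 5.65 and 6.3 after 4-day handling, 4.48, 5.44 and 7.13 after 1-day handling, and 5.06, 6.37 and 8.15 in control rats. All 10 rats with 4-day handling and 8 of 10 with 1-day handling lay below the control median, 2 in each below every control rat. The log2 fold change was -0.19 after 4-day handling (standard error 0.09, 95% interval -0.37 to 0, limma adjusted p = 0.458) and -0.15 after 1-day handling (standard error 0.09, 95% interval -0.34 to 0.04, limma adjusted p = 0.637). Without control rats 1, 2 and 3 it was -0.18 after 4-day handling and -0.15 after 1-day handling.

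Igfbp3 encodes the main IGF carrier protein of blood and in rat liver is made mostly by cells other than hepatocytes. Igfbp3 1367652_at had a lowest, median and highest intensity of 2.62, 4.77 and 6.29 after 4-day handling, 4.2, 5.35 and 6.43 after 1-day handling, and 3.52, 4.85 and 7.8 in control rats. Igfbp3 1386881_at had medians of 4.27 after 4-day handling, 4.35 after 1-day handling and 4.03 in control rats, and the groups overlapped in both probe sets. In both, 4-day rat 9 lay below every other rat (2.62 and 2.51) and control rat 4 above every handled rat (7.8 and 5.47). That 4-day rat had the lowest summed intensity of stellate cell markers (11.8) and of Kupffer cell markers (22) in its group, while its sum of endothelial markers (15.8) ranked 8 of 10 from the lowest and that of bile duct markers (0.622) 9 of 10. Control rat 4 ranked 7 of 10 from the lowest for stellate cell (19) and bile duct markers (0.791), 6 for Kupffer cell (33.1) and 10 for endothelial markers (16.4). The stellate cell sum had a median of 18.8 after 4-day handling, and Col3a1 alone 9.88. Summed over 8 of 8 stellate cell markers, intensity ran from 11.8 to 20.7 after 4-day handling, 13.8 to 20.1 after 1-day handling and 12.9 to 21.3 in control rats. Over 7 of 9 Kupffer cell markers it ran from 22 to 31.1 after 4-day handling, 26.9 to 43.4 after 1-day handling and 25.1 to 41.3 in control rats, with 0 markers of either list below the array median. Their part in the Igfbp3 values was not tested, and in whole liver fewer cells of a type and less RNA per cell cannot be told apart. Igfbp3 had log2 fold changes of -0.11 in 1367652_at and -0.02 in 1386881_at after 4-day handling, and of 0.02 and 0.06 in these probe sets after 1-day handling (limma adjusted p from 0.80 to 0.974).

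**Figure D2:**
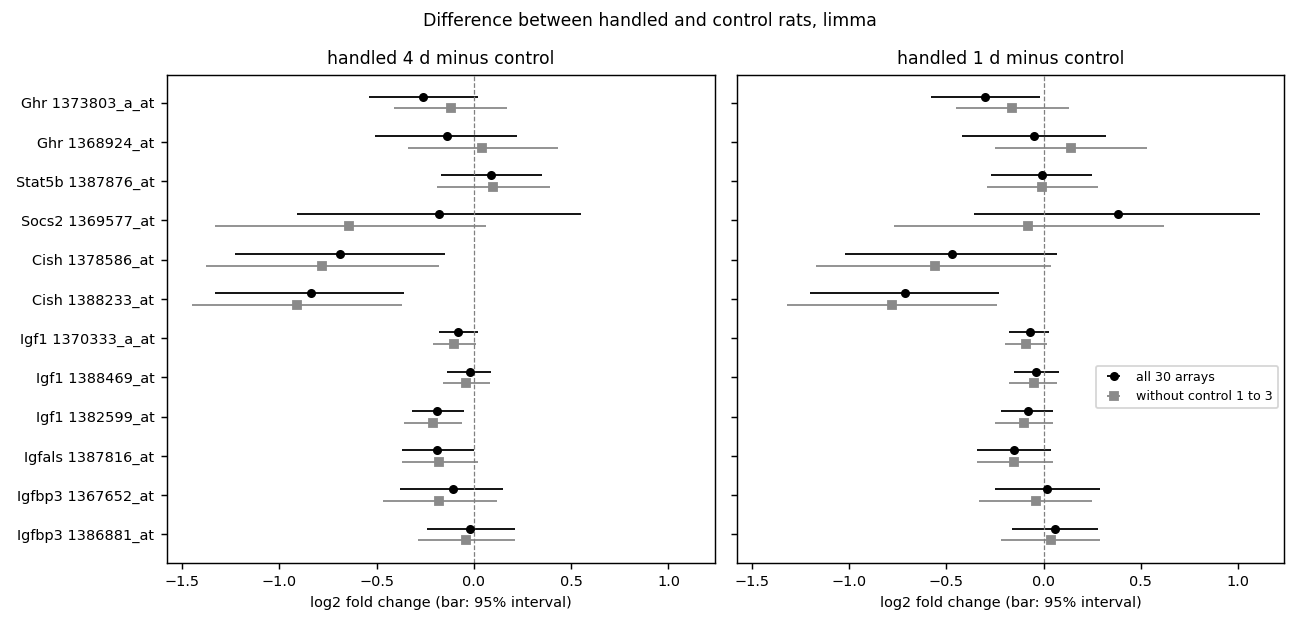
Log2 fold change of each member probe set with its 95% interval in 4-day handling minus control (left) and 1-day handling minus control (right), for all 30 arrays (circles) and without control rats 1 to 3 (squares). The Cish intervals of 1388233_at lie below 0 in both panels (-1.33 to -0.36 and -1.20 to -0.23), and Socs2 moves most when the control rats are left out.

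With the direction of the labels, most member values were negative. After 4-day handling 11 of 12 member probe sets had a log2 fold change below 0, with a median of -0.16 (49.5% of all probe sets were below 0, median 0). After 1-day handling 9 of 12 were below 0 with a median of -0.06 (50.8% of all, median 0). Probe sets of 1 gene share a transcript and both comparisons share the control rats, so these counts are not independent. Without control rats 1, 2 and 3, 10 of 12 were below 0 after 4-day handling with a median of -0.15 (50.8% of all probe sets) and 10 of 12 after 1-day handling with a median of -0.08 (52.2% of all). Between 4-day and 1-day handling 9 of 12 were below 0 with a median of -0.09 (48.5% of all, median 0.01), from -0.56 for Socs2 to 0.10 for Stat5b.

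The members varied very unevenly among rats of 1 group. Socs2 had a standard deviation within groups of 0.71 on the log2 scale over 27 rats, larger than that of 97% of all probe sets, and the Cish probe sets had 0.62 and 0.55, larger than 90.1% and 81.3%. Ghr had 0.29 and 0.39, Stat5b 0.29, Igfbp3 0.29 and 0.25 and Igfals 0.19, against a median of 0.35 over all probe sets. By this measure the inhibitors were the variable members and Igf1 the steady one. The probe sets of Igf1 were also bright, with group medians at percentile 97.6 to 99.8 of the array, against 47.0 to 79.3 for Socs2 and Cish. Ghr 1373803_a_at, with the 0.29 given above, lay at 98.0 to 98.4. The part of brightness in this spread was not tested. The 3 control rats that stood apart lay outside the range of the other 7 in 2 of 12 member probe sets, Ghr 1368924_at above and Socs2 below, where 13.9% of all probe sets did so on either side. These rats were singled out by their whole profile, so this is a description with no test.

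Igfals moved with other members from rat to rat. Over 27 rats, each as its deviation from the group mean, 2 of 21 gene pairs passed a Benjamini-Hochberg adjusted p under 0.05 with 100000 permutations. Igfals was lower in rats with higher Ghr (r = -0.56, permutation p = 0.00243, adjusted p = 0.0469, rho = -0.54, adjusted p = 0.042), and r was -0.46 without the 2 rats farthest from the median of Ghr. Within groups, r for Ghr and Igfals was -0.60 in 4-day rats, -0.50 in 1-day rats and -0.63 in the 7 control rats. Igfals was higher in rats with higher Igf1 (r = 0.53, permutation p = 0.00447, adjusted p = 0.0469, rho = 0.56, adjusted p = 0.042), with r = 0.44 without the 2 rats farthest from the median of Igf1. Within groups that r was 0.62 in 4-day rats, 0.38 in 1-day rats and 0.68 in control rats. The rats left out were chosen by Ghr or Igf1 and not by Igfals. In its group, 4-day rat 5 had the lowest Igfals (4.03), the lowest Igf1 (38.7) and the highest Ghr (13.5), and r was not computed without this rat alone. Neither pair passed with quantile normalization or with all 30 arrays. Ghr and Igf1 had an r of -0.01 (permutation p = 0.957), and Stat5b passed with no other member.

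**Figure D3:**
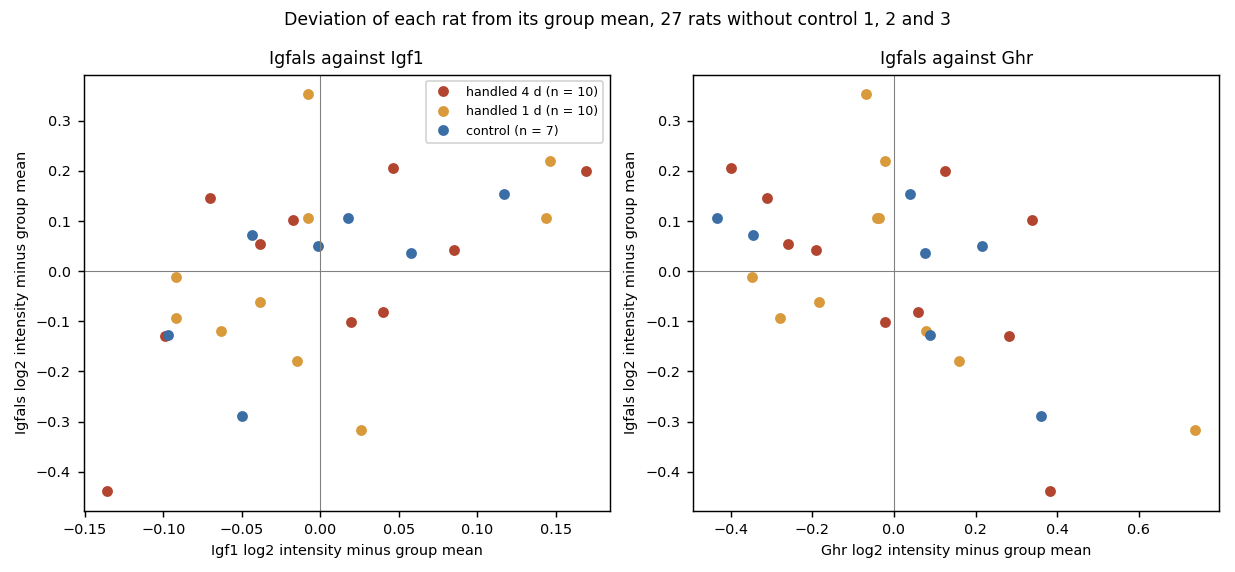
Log2 intensity minus the group mean in each of 27 rats (control rats 1 to 3 left out) for Igfals against Ghr and Igfals against Igf1, coloured by group. Igfals falls along Ghr (r = -0.56) and climbs along Igf1 (r = 0.53).

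With all 30 arrays, no gene of the receptor signalling, IGF protein, growth hormone-dependent or pituitary and gut lists passed the test either. Of 17 measured genes of growth hormone receptor signalling, 0 were called higher and 0 lower in either comparison with control, with median log2 fold changes of 0.02 after 4-day handling and -0.03 after 1-day handling (0 over all probe sets in each). Stat3, a factor activated by interleukin-6 as well as by growth hormone, had the smallest p of that list after 4 days, at a log2 fold change of 0.40 (standard error 0.13, limma adjusted p = 0.189) and 0.17 after 1-day handling. Ptpn11, which encodes a phosphatase recruited to the receptor complex, had -0.06 after 4-day and -0.11 after 1-day handling. Sirpa, which encodes a membrane protein that docks this phosphatase, had 0.17 after 4-day and 0.23 after 1-day handling. Socs6, a further suppressor of cytokine signalling, had 0.11 after 4-day and 0.08 after 1-day handling, with limma adjusted p from 0.463 to 0.736 for these 3 genes. With control rats 1, 2 and 3 left out, Sirpa had 0.03 after 4-day and 0.10 after 1-day handling, and Socs6 had 0.05 after 4-day and 0.02 after 1-day handling. In that fit a single gene of the list was called, Stat5a, the close relative of Stat5b, after 4-day handling (log2 fold change 0.35, limma adjusted p = 0.0951). Those control rats had Stat5a intensities of 0.409, 0.399 and 0.406, and the other 27 rats 0.165 to 0.298. Its log2 fold change with all 30 arrays was 0.05 after 4-day handling (limma adjusted p = 0.938).

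In the list of IGF ligands, receptors, binding proteins and related genes, 16 genes were measured and 0 were called in either comparison. The related genes were Igf2bp1, Igf2bp2 and Igf2bp3, whose proteins bind mRNA and not IGF, and Pappa2, Stc2 and Htra1. Of the 16 genes, 4 lay below the array median. The median log2 fold change of the list was 0.12 after 4-day handling and 0.17 after 1-day handling. After 1-day handling 16 of 16 were above 0 with all arrays (50.8% of all probe sets were below 0), with Igf1r at 0 after rounding. Without control rats 1, 2 and 3, 13 of 16 were above 0 (52.2% of all were below 0), and the median was 0.05. The list leaves out the members: after 1-day handling Igf1 had -0.07, -0.04 and -0.08, Igfals -0.15, and Igfbp3 0.02 and 0.06 with all arrays. In 4 of the 16 genes those rats lay below all 7 other control rats: Igf2, Insr, Igfbp1 and Igfbp2, where 13.9% of all probe sets lay outside on either side. Igfbp1, a binding protein that insulin represses, measured 3.17, 3.65 and 9.63 in these 3 rats, and 10.1 to 42.2 in the other 27. Igfbp2, which is high in fasted liver, measured 0.384, 0.459 and 0.626 in these rats and 1.26 to 10.3 in the others. Igf2, the fetal growth factor gene, measured 0.0888, 0.0445 and 0.0677 in these rats and 0.131 to 0.288 in the others. Igf2 had log2 fold changes of 0.53 after 4-day and 0.45 after 1-day handling (limma adjusted p = 0.381 and 0.578). Without those rats it was 0.05 after 4-day and -0.03 after 1-day handling. Insr, the insulin receptor gene, had log2 fold changes of 0.17 after 4-day and 0.27 after 1-day handling, and 0.01 and 0.11 in these comparisons without those rats. Of the binding protein genes, Igfbp4 had 0.16 after 4-day and 0.09 after 1-day handling, and Igfbp5 had 0.30 after 4-day and 0.16 after 1-day handling, with limma adjusted p from 0.469 to 0.786 for these 3 genes. Without those rats Igfbp4 had 0.08 after 4-day and 0.01 after 1-day handling.

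Growth hormone-dependent liver genes were likewise not called, 0 of 14 in each comparison, with medians of 0.02 after 4-day handling and 0.03 after 1-day handling. Cyp2c12, the female-specific steroid hydroxylase of rat liver, had an intensity of 40.8 to 46.7 after 4-day handling, 41.8 to 46.9 after 1-day handling and 40.4 to 48.8 in control rats. The male-specific Cyp2c13 had log2 fold changes of -0.59 after 4-day and -0.51 after 1-day handling (limma adjusted p = 0.46 and 0.619). Control rats 1, 2 and 3 had Cyp2c13 intensities of 0.239, 0.572 and 0.398, where the other 27 rats had 0.0536 to 0.164, and without them its log2 fold change was -0.02 after 4-day and 0.05 after 1-day handling. Cyp3a2, another male-biased hydroxylase, had 0.30 after 4-day and 0.53 after 1-day handling. Cux2, a repressor known as female-biased in mouse liver, had -0.15 after 4-day and -0.20 after 1-day handling. Hnf4a, a hepatocyte transcription factor, had 0.20 after 4-day and 0.05 after 1-day handling, with limma adjusted p from 0.235 to 0.869 for these 3 genes. When control rats 1, 2 and 3 were left out, Cyp3a2 had 0.54 after 4-day and 0.76 after 1-day handling, Cux2 had -0.26 and -0.31, and Hnf4a had 0.14 and -0.01 in the same comparisons. Both Cyp2c13 and Cyp3a2 lay below the array median, and the files hold no detection call. Of 7 genes of pituitary and gut inputs such as Gh1 and Ghrl, 6 lay below the array median and 0 were called. Within that list the receptor for growth hormone-releasing hormone, Ghrhr, had log2 fold changes of 0.23 after 4-day and 0.27 after 1-day handling, and the ghrelin receptor Ghsr had 0.66 after 4-day and 0.64 after 1-day handling. Ghrelin itself, Ghrl, had 0.36 after 4-day and 0.03 after 1-day handling, and prolactin, Prl, had 0.26 after 4-day and -0.19 after 1-day handling (limma adjusted p from 0.446 to 0.976).

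**Figure D4:**
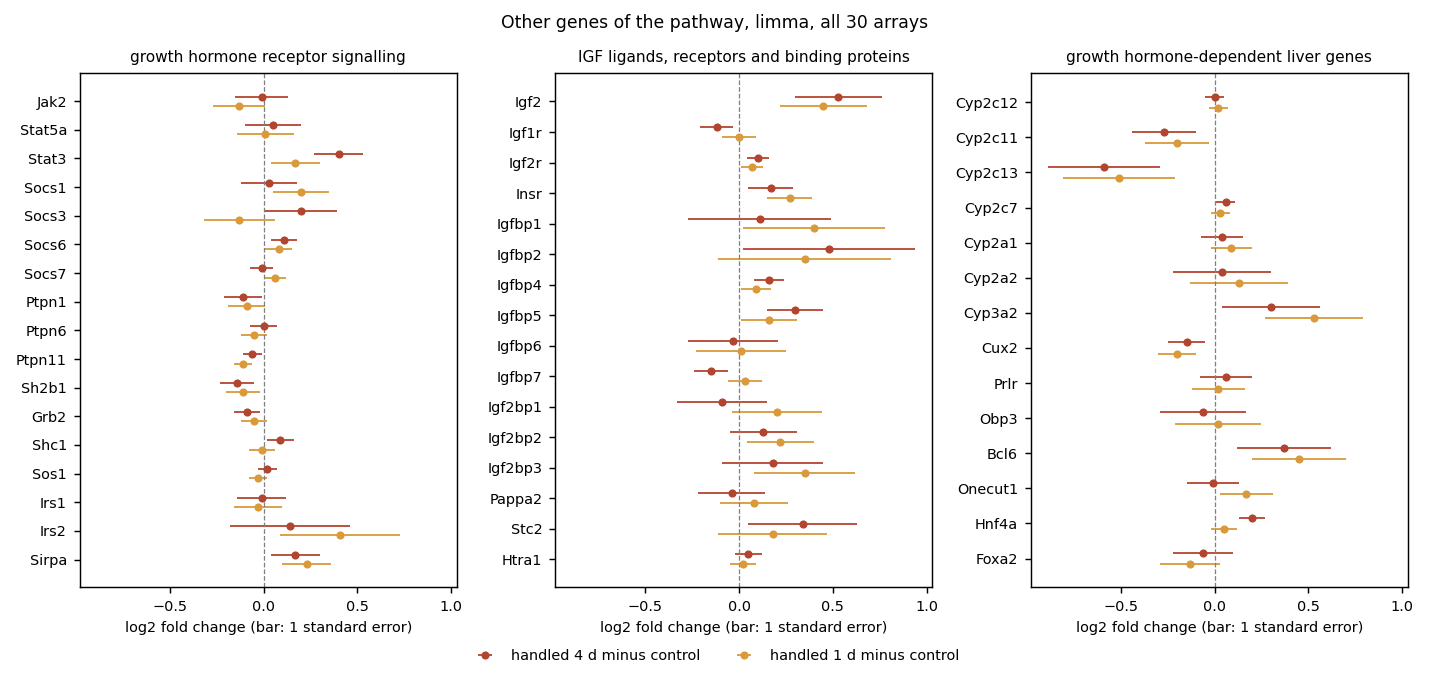
Log2 fold change with 1 standard error for the other genes of the pathway in 4-day and 1-day handling minus control, all 30 arrays, in panels for receptor signalling, IGF proteins and growth hormone-dependent liver genes. No gene drawn passed an adjusted p under 0.1, and Igf2 (0.53) and Cyp2c13 (-0.59) lie farthest from 0 after 4 days.

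Genes that report feeding state were listed to describe control rats 1, 2 and 3, with earlier results of these data known. In these rats, 6 of 7 such genes lay outside the range of the other 7 control rats (13.9% of all probe sets). Since the list was chosen for these rats, that count is a description and no test. Scd, a desaturase of fat synthesis, was the only one called with all arrays, with a log2 value of -2.45 in 4-day handling minus control (limma adjusted p = 0.0908), and -1.28 (limma adjusted p = 0.288) without those rats. Without them the only calls were Fasn, fatty acid synthase, with 0.97 after 4-day and 0.88 after 1-day handling (limma adjusted p = 0.00417 and 0.00896), and Srebf1, a regulator of lipid synthesis, with 0.76 after 4-day and 0.79 after 1-day handling (limma adjusted p = 0.0164 and 0.0171). With all 30 arrays Fasn had -0.55 after 4-day and -0.64 after 1-day handling and Srebf1 -0.39 and -0.36, so the sign of both genes turned on control rats 1, 2 and 3. Cpt1a, the carnitine transferase of mitochondrial fat entry, had 0.84 after 4-day and 1.02 after 1-day handling, and Pck1, an enzyme of glucose production, had 0.37 after 4-day and 0.41 after 1-day handling. Fgf21, a fasting hormone, had 0.42 after 4-day and 0.73 after 1-day handling, with limma adjusted p from 0.465 to 0.697 for these 3 genes. Leaving out those rats, Cpt1a had -0.21 after 4-day and -0.03 after 1-day handling, Pck1 had -0.02 and 0.02, and Fgf21 had 0.10 and 0.41 in the same comparisons. The part of feeding state in the member values was not tested.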

How the data were processed

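RNA of the left liver lobe of 30 rats was hybridised to Affymetrix Rat Genome arrays, 1 per rat, by the authors. The deposited values are intensities per probe set on a linear scale, and every array has a mean of 1, as the values show. The authors name Affymetrix GeneChip Operating Software for quality checks and analysis and Rosetta Resolver for ratios to the control mean, which are not used here. How the deposited values were summarised and scaled is not stated further in the sources used here. The files hold 31099 probe sets, and without 57 control probe sets of the maker 31042 were tested. A symbol of its own was carried by 20826 (14217 genes, platform annotation), several by 436 and none by 9780.

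Intensities were turned to log2 with no offset and compared in limma 3.58.1 (R 4.3.3), with 3 groups in 1 fit, two-sided testing and adjustment by Benjamini-Hochberg across all probe sets. A call needed an adjusted p under 0.1. In gene lists and correlations the probe set with the highest mean log2 intensity stood for a gene. Correlations used deviations from the group mean, 100000 resamples (Python 3.11.15) and an adjusted p under 0.05. Each was repeated without the 2 rats farthest from the median of the first gene. The steps were tested on simulated data with known changes. No identical arrays were found, and precision is limited by how many arrays there were.

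Named are all member probe sets, genes called in a pathway list in a comparison with control, the 4 genes per list with the smallest p, and the 3 genes most like each member. Stat5a, Igfbp1, Igfbp2, Cyp2c12, Gh1, Fasn and Srebf1 were named after their values were seen. Members and lists were chosen with earlier results of these data known. Lists were receptor signalling, IGF proteins, growth hormone-dependent liver genes, pituitary and gut inputs, feeding-state genes, cell type markers and the genes that the study names as changed, used for the sign only. Promoters are from RefSeq (GRCr8), which held 6 of the 7 member genes. Alternatives were an offset of 0.05, quantile normalization, leaving out the dimmest 40% of probe sets, control rats 1 to 3 or each rat in turn, a replicate block, only the 2 groups compared, the Gapdh ratio as a covariate, array weights and the methods' t-test.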

Additional observations from a re-analysis of the deposited data

Results flagged for a closer look

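In 4 of the 36 sets of 10 rats examined (12 probe sets in 3 groups), 1 rat lay far from the other 9 by Dixon's criterion, and chance alone flags about 1 set in 20. The sets share rats and some share a gene, so they are not independent, and whether 4 is more than chance gives was not tested. Ghr 1373803_a_at was 16.9 in 1-day rat 10, where the next highest rat had 11.3. Ghr 1368924_at was 0.461 in 4-day rat 3, where the next lowest had 0.788. Igfals was 4.03 in 4-day rat 5, where the next lowest had 4.99, and Igfbp3 1367652_at was 2.62 in 4-day rat 9, where the next lowest had 3.96. The 1-day rat with the highest Ghr also had the highest Ghr 1368924_at (1.59) and the lowest Igfals (4.48) of its group. The 4-day rat with the lowest Igfals had the highest Ghr 1373803_a_at (13.5) and the lowest Igf1 1370333_a_at (38.7) of its group.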

How the results depend on the processing

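With the numbers of the labels as a replicate block, 0 of 12 member probe sets were called in each of the 3 comparisons, as without it, and 85 in place of 204 of all probe sets were called after 4-day handling and 2 in place of 28 after 1-day handling. The labels do not say that a number marks shared rats or batches. The numbers were not used as pairs. Over 30 pairs of same-numbered rats the correlation of deviations was -0.0382 to 0.118, above 0.1 in 1 pair. Of 20 handled rats, 8 correlated best with the control rat of their own number, where each had 10 control rats to match. These values come from the data and not from the design, and whether the numbers mark a shared structure was not tested. The count of called members after 4-day handling was 1, Cish 1388233_at, with an offset of 0.05 (limma adjusted p = 0.0946) and without the dimmest 40% of probe sets (0.0716). Leaving out 1 rat at a time gave 0 to 1, the call coming without 4-day rat 1 (limma adjusted p = 0.0737, log2 fold change -0.96). In all other alternatives it was 0, as it was in the other comparisons under every alternative. Calls over all probe sets after 4-day handling were 346 with the offset, 490 without dim probe sets, 27 with only the 2 groups compared, 5 with the Gapdh ratio and 86 to 307 leaving out 1 rat. After 1-day handling they were 45, 113, 1 and 0 under those settings, 1 to 44 leaving out 1 rat, 102 without control rats 1 to 3 and 55 with the methods' t-test. Between handled groups the Gapdh ratio gave 1 in place of 0.

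The sign of small member values turned as follows. Without control rats 1 to 3, Ghr 1368924_at was 0.04 after 4-day and 0.14 after 1-day handling, and after 1-day handling Socs2 was -0.08 and Igfbp3 1367652_at -0.04. With the Gapdh ratio, Ghr 1368924_at was 0.17 after 4-day and 0.21 after 1-day handling, Igfbp3 1386881_at 0.04 after 4-day and Stat5b 0.16 after 1-day handling. With array weights, after 1-day handling Ghr 1368924_at was 0.06 and Igfbp3 1367652_at -0.01. Leaving out 1 rat after 4-day handling gave Igfbp3 1386881_at -0.06 to 0.06. After 1-day handling it gave Ghr 1368924_at -0.12 to 0.04, Stat5b -0.06 to 0.05 and Igfbp3 1367652_at -0.03 to 0.09. Between 4-day and 1-day handling it gave Ghr 1368924_at -0.18 to 0.02, Ghr 1373803_a_at -0.01 to 0.11, Igf1 1370333_a_at -0.03 to 0.01, Igf1 1388469_at -0.01 to 0.03, Igfals -0.07 to 0.02 and Igfbp3 1386881_at -0.12 to 0. None of these passed the test, and the cause was not tested. Of the 21 gene pairs, 0 passed with all 30 arrays and 0 with quantile normalization, and 2 with Spearman's rho and 2 with the Gapdh ratio. No detection calls came with the arrays, so the dim probe sets of Stat5b and Cish have no known distance from background.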

Other observations

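The genes most like each member from rat to rat were found among 14217 genes, by Pearson's r of deviations from the group mean over 27 rats, given here as a description. The rats share the arrays' scaling and RNA quality, and r over so few rats is imprecise. Those nearest to Ghr were Zcchc14 (r = 0.84), the prolactin receptor gene Prlr (0.84) and the leukemia inhibitory factor receptor gene Lifr (0.83). Prlr and Lifr lie on the chromosome of Ghr, with 37 and 19 protein-coding genes between. For Igfbp3 they were Igfbp7 (0.75), the matrix proteoglycan gene Bgn (0.73) and Abi3bp (0.72). For Igf1 they were Camsap3 (0.76), Blmh (0.72) and Dmxl2 (0.72), and for Igfals Akt1s1 (0.80), the chaperonin subunit gene Cct5 (0.76) and Unc50 (0.76). Socs2 lay nearest to Ppp2cb (0.79), the nuclear transport gene Ran (0.76) and Jund (0.76). Cish lay nearest to Ndn (0.71), Plpp3 (0.70) and the immediate early gene Ier2 (0.70), and Stat5b to Htra1 (0.81), Cd82 (0.67) and Mthfd2 (0.65). Ndn and Mthfd2 lay below the array median.

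The r between Ghr and Cish was above 0 in 4-day rats and below 0 in control rats 4 to 10. Between Ghr 1368924_at and Cish 1378586_at, r was 0.83 in the 10 rats with 4-day handling, -0.03 in the 10 with 1-day handling and -0.79 in the 7 control rats 4 to 10. With Cish 1388233_at it was 0.85 after 4-day handling, 0.30 after 1-day handling and -0.78 in control rats. For Ghr 1373803_a_at, r was 0.57, 0.19 and -0.79 with Cish 1378586_at in those groups, and 0.45, 0.32 and -0.85 with 1388233_at. Over the 27 rats, r was 0.10 and 0.33 for Ghr 1368924_at and -0.01 and 0.08 for 1373803_a_at (permutation adjusted p from 0.75 to 0.977). In both Ghr and both Cish probe sets, 4-day rat 3 was the lowest of its group (7.86, 0.461, 0.141 and 0.0521). The r of that group was not computed without this rat. The difference between groups was not tested, and it was noticed after the values were seen.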
